A study of Mus musculus with 40 samples.

Results

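The genes examined were 8 components of the tight junction, chosen by name: the claudins *Cldn1*, *Cldn2*, *Cldn3*, *Cldn4*, *Cldn7* and *Cldn15*, occludin (*Ocln*) and the scaffold gene *Tjp1*, which encodes ZO-1. All 8 were found among the 15958 genes of the expression table, and all 8 passed the filter on low values in each tissue. Expression was measured by RNA sequencing in 40 libraries from male wild type C57BL/6 mice that were 8 weeks old at surgery. Small bowel resection (SBR) removed 50% to 60% of the small bowel by the sample labels (the methods of the study give a different extent) and left the duodenum and the terminal ileum; sham mice had the bowel cut and rejoined. From 3 weeks after surgery, SBR mice received vehicle or WUSTL0717, a gut-restricted agonist of the liver X receptor (LXR), at 30 mg/kg daily for 7 weeks, and sham mice received vehicle. The duodenum and the post-anastomotic ileum each gave 3 sham, 4 SBR-vehicle and 4 SBR-WUSTL0717 libraries, and the liver gave 5, 8 and 5.

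Tight junctions seal the space between neighboring epithelial cells. Claudins line this seal and set which ions and how much water pass. Claudins 2 and 15 form paracellular channels for small cations and water, and in the intestine claudin 15 supplies the sodium that nutrient uptake draws on. Claudins 1, 3, 4 and 7 are mostly counted as sealing claudins, although claudin 7 also lies along the basolateral membrane. Occludin spans the membrane at the same site, and ZO-1 ties claudins and occludin to actin. In the liver, tight junctions close the bile canaliculi between hepatocytes and join the cholangiocytes that line the bile ducts. Claudins 4 and 7 are better known from ducts than from hepatocytes.

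Levels are given as log2 TPM, a transcript abundance scaled for gene length and library total, after a batch correction in which the intestinal libraries were 1 batch and the liver libraries the other. The correction brought the liver and intestinal means to within 1 log2 unit for 99.4% of genes, and to within 0.12 to 0.74 for the 8 tight junction genes. Levels were therefore never compared between liver and intestine, and the order of different genes within a tissue was not read. The correction may also have rescaled differences gene by gene, so the sizes of changes in liver and intestine are not set against each other. A gene was called changed at an adjusted p under 0.05 (limma, Benjamini-Hochberg over all genes tested in the tissue). Read totals were not at hand, so the depth behind each value is unknown.

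Most regional marker genes went with the tissue labels, and genes of neighboring organs were also present in some libraries. The ileal bile acid genes *Fabp6* and *Slc10a2* were called higher in the ileum than in the duodenum in every condition, as were the duodenal genes *Pdx1* and *Cybrd1* in the duodenum. Of the 7 duodenal markers, 4, 6 and 6 were called higher in the duodenum in sham, SBR-vehicle and SBR-WUSTL0717 mice, and *Tfrc* was called lower there in both SBR groups (-2.12 and -1.45). Exocrine pancreas genes were at a mean of 1.71 to 7.49 log2 TPM across the duodenal libraries, while 8 of 9 of them stayed under 1 in every ileal library. Ileal SBR-WUSTL0717 library 2 had hepatocyte genes at a mean of 8.96, against 6.43 to 6.80 in the other 3 of its group. The batch correction drew liver and intestinal means together, so these ileal means are not actual hepatocyte transcript levels. They are read only against other libraries of the batch. Liver SBR-vehicle library 7 had pancreas genes at a mean of 7.31, against 2.05 to 2.22 in the rest of its group, and liver SBR-vehicle library 2 had the lowest hepatocyte mean of its group, 6.29.

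The first comparison asked what resection did to these genes in the remaining ileum. *Cldn2*, the cation and water channel, was the single member called. It was at 3.62, 3.62 and 4.09 log2 TPM in the 3 sham ilea and at 6.77, 6.78, 7.40 and 7.67 in the 4 SBR-vehicle ilea. Every SBR-vehicle ileum lay above every sham ileum. The mean difference was 3.38 (SE 0.51, 95% interval 2.27 to 4.48, adjusted p = 0.0151, limma). By p it ranked 23 of 15772 genes tested, and the exact two-sided permutation p was 0.0286, the smallest that 4 against 3 libraries allow. So 1 of 8 members was called, against 0.349% of all genes, 0.241% with SBR higher. Groups did not overlap, with SBR higher, in 6.73% of all genes.

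The gene *Cldn2* lies at chrX:139800828-139811386 on the plus strand (GRCm38). The 250 bases before its RefSeq start (GRCm38.p6, chrX:139800558-139800807, plus strand) are shown because this gene gave the largest intestinal difference. Capitals mark motif letters found on either strand: a CDX motif (TTTATG) 244 to 239 bases before the start, and a TATA box (TATAAA) 35 to 30 bases before it.
Cldn2: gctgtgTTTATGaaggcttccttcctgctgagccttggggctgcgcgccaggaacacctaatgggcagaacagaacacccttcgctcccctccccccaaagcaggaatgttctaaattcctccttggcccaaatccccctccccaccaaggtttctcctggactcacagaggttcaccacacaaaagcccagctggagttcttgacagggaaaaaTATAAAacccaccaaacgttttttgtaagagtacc
A TATA box occurred in 12.4% of 32851 mouse promoter windows of this length and the CDX letters in 10.8%. CDX factors set intestinal identity, but a letter match is a description and not a binding site. Of the 8 members, *Cldn2* alone held TATAAA or TTTATG in its window.

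**Figure D1:**
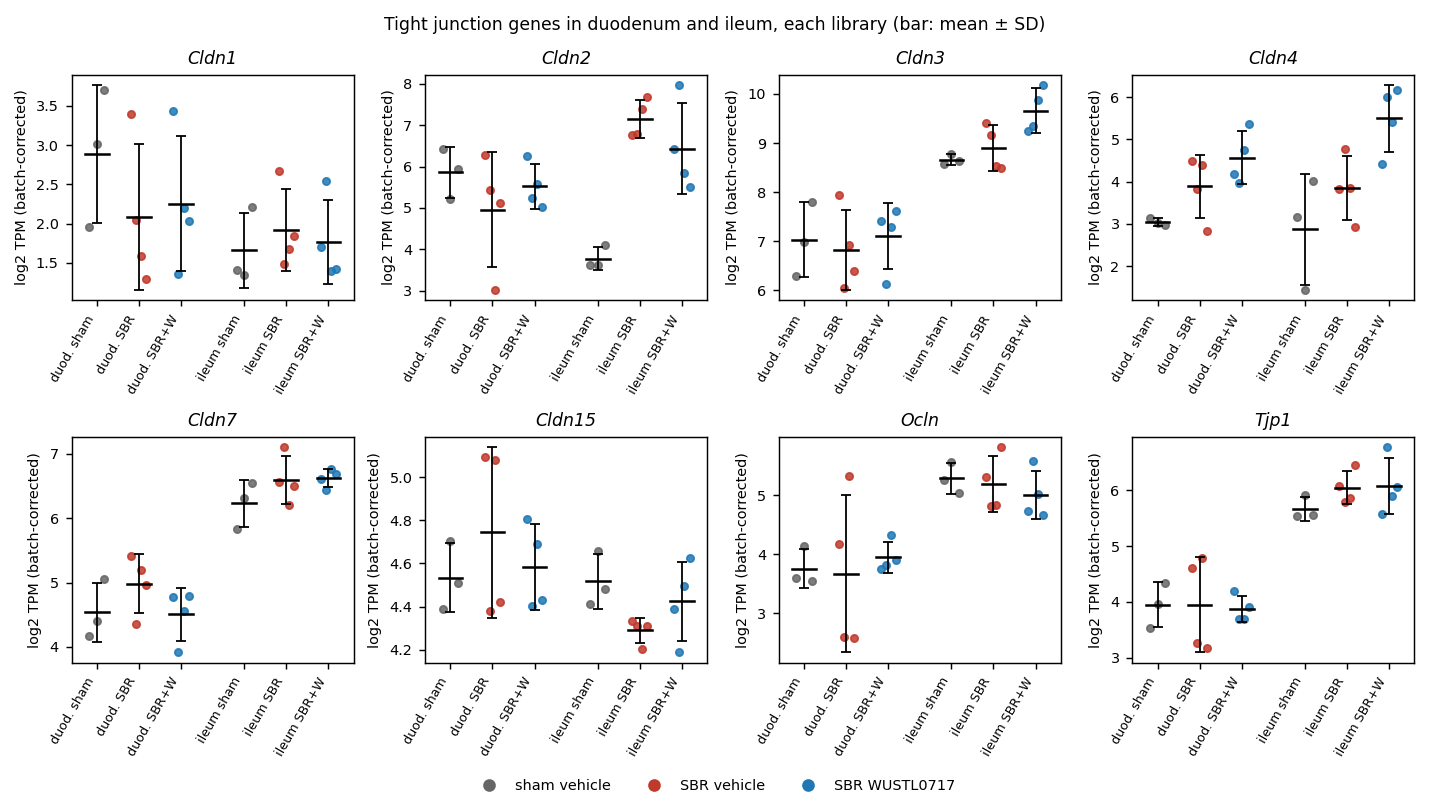
Batch-corrected log2 TPM of each tight junction gene (y axis) in every duodenal and ileal library, by tissue and condition (x axis, SBR+W is SBR-WUSTL0717). Points are libraries, bars are mean ± SD. Ileal *Cldn2* in the 4 SBR-vehicle libraries, 6.77 to 7.67, sits above the 3 sham libraries, 3.62 to 4.09.

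The other 7 members were not called in this comparison. The cation channel *Cldn15* was at 4.41, 4.66 and 4.48 in sham ilea and at 4.33, 4.31, 4.20 and 4.31 in SBR-vehicle ilea. All SBR-vehicle values were thus below all sham values, by a mean of 0.23 (log2 difference -0.23, SE 0.22, adjusted p = 0.932, limma, exact permutation p = 0.0286). Groups did not overlap in 9.5% of all genes tested here, 2.77% with SBR lower. The remaining 6 differed by -0.09 to 0.98, and the median over all 8 members was 0.313, against 0.0713 over all genes.

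Some markers of position along the bowel also differed in the same comparison. *Fabp6*, the ileal bile acid binding protein, was higher by 2.05 (SE 0.29, adjusted p = 0.0137) and *Slc10a2*, the ileal bile acid transporter, by 2.02 (SE 0.30, adjusted p = 0.0145). All 6 ileal markers were higher after SBR, 2 of them called, against 0.241% of all genes called higher. Of the 5 duodenal markers tested, 3 were lower, among them *Adh6a* at -1.53 (adjusted p = 0.0964) and the proximal bowel factor *Gata4* at -2.15 (adjusted p = 0.407), while the iron exporter *Slc40a1* was at 1.48 (adjusted p = 0.142) and *Tfrc* at 0.29, and none was called. Epithelial markers were higher in 7 of 7 with none called (median 0.339), and crypt markers had a median of -0.01, with 4 of 8 higher. With each library centered on its epithelial markers, the *Cldn2* difference was 2.88 (adjusted p = 0.0271). The part of bowel position in it was not tested. In bulk tissue, fewer cells of a type and less RNA per cell cannot be told apart.

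Under WUSTL0717 the ileal *Cldn2* level was 6.42, 7.98, 5.84 and 5.50 log2 TPM. These values lay above all 3 sham libraries, and 3 of them lay below and 1 above all SBR-vehicle values. The log2 difference from SBR vehicle was -0.72 (95% interval -1.74 to 0.30, adjusted p = 0.875), and the difference from sham was 2.66 (SE 0.51, adjusted p = 0.0230, exact permutation p = 0.0286). Both comparisons with sham use the same 3 sham libraries. Without library 2 of the treated group, the one with hepatocyte genes, the difference from sham was 2.14 (adjusted p = 0.0203) and that from SBR vehicle was -1.23 (SE 0.31, adjusted p = 0.230), the other 3 treated ilea lying below all 4 SBR-vehicle ilea.

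The calls for ileal *Cldn2* rested on few libraries and on the fit. With the unmoderated two-sample test the adjusted p was 0.0975 for SBR vehicle and 0.234 for WUSTL0717 against sham, and for WUSTL0717 it was 0.0654 with the compared groups alone. Without SBR-vehicle library 1 or 3, or any 1 of the sham libraries, the adjusted p for SBR vehicle against sham rose to between 0.0541 and 0.0984, while the difference stayed between 3.20 and 3.53 over all 7 omissions. Without sham library 1 or 2, the adjusted p for WUSTL0717 against sham was 0.102 or 0.099.

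The sealing claudins *Cldn3* and *Cldn4* had their highest ileal levels under WUSTL0717. *Cldn4* was at 3.17, 1.43 and 4.02 in sham ilea, at 3.84, 4.78, 3.86 and 2.92 in SBR-vehicle ilea and at 4.41, 6.01, 5.41 and 6.17 in SBR-WUSTL0717 ilea. Of the 4 treated libraries, 3 lay above every SBR-vehicle library, and all 4 lay above every sham library. Against SBR vehicle the difference was 1.65 (SE 0.57, p = 0.0138, adjusted p = 0.583, limma, exact permutation p = 0.0571). Against sham it was 2.63 (SE 0.62, adjusted p = 0.0514, exact permutation p = 0.0286). Neither was called. Over the 7 omissions of 1 library the latter ranged from 1.91 to 3.20, with adjusted p of up to 0.201, and it was called without treated library 1 or sham library 3 (adjusted p = 0.0423 or 0.0381).

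*Cldn3* was at 8.57, 8.78 and 8.64 in sham ilea, at 9.41, 9.16, 8.53 and 8.49 after SBR with vehicle and at 9.24, 9.34, 9.88 and 10.19 with WUSTL0717. The treated libraries overlapped the SBR-vehicle libraries and lay above the sham libraries. The difference from SBR vehicle was 0.76 (SE 0.32, p = 0.0351, adjusted p = 0.694, limma, exact permutation p = 0.0857). The difference from sham was 1.00 (SE 0.35, adjusted p = 0.199, exact permutation p = 0.0286). *Cldn3* and *Cldn4* are neighbors on chromosome 5, at chr5:134986214-134987472 (plus strand) and chr5:134945119-134946934 (minus strand), 39.279 kb apart.

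Against SBR vehicle, WUSTL0717 thus gave 0 of 8 members called in the ileum, also with the unmoderated two-sample test, and 2 of 8 at an unadjusted p under 0.05. Over all genes, 0.0697% were called and 6.87% reached that unadjusted p. Against sham, 1 of 8 was called and 2.17% of all genes, and 3 of 8 did not overlap sham, against 13.2% of all genes, 9.46% with WUSTL0717 higher. The members' median difference from SBR vehicle was 0.0304 and that of all genes 0.00312. The intervals for the 6 other members against SBR vehicle lay between -1.74 and 0.66.

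**Figure D2:**
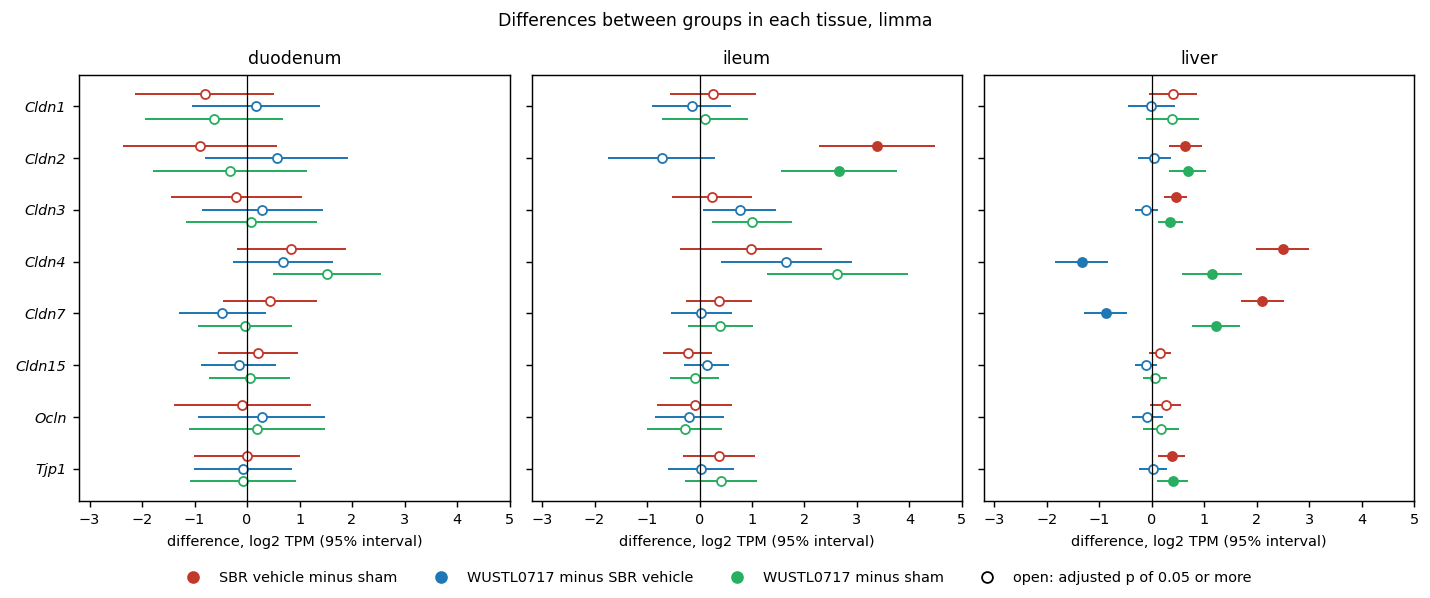
Differences between groups for each gene, in log2 TPM (x axis), with 95% intervals from limma, for duodenum, ileum and liver. Filled points have an adjusted p under 0.05. The filled points are *Cldn2* in the ileum (3.38 and 2.66, both against sham) and liver genes, led by *Cldn4* (2.49) and *Cldn7* (2.11) for SBR vehicle minus sham.

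In the duodenum, 0 of 8 members was called in any comparison, also with the unmoderated test. For SBR vehicle against sham, 0% of 15093 genes were called and 16.1% reached an unadjusted p under 0.05, which no member did. The members' median difference was -0.0431, against -0.361 over all genes. *Cldn2* was at 6.44, 5.21 and 5.93 in sham duodena and at 6.27, 5.44, 3.01 and 5.12 after SBR with vehicle. SBR-vehicle library 3 was low and the other 3 lay in or near the sham range; the difference was -0.90 (95% interval -2.36 to 0.57).

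Of 9 pancreas markers, 0 was called in any duodenal comparison (limma), and 0 had an unadjusted p under 0.05. All 9 were lower in SBR-vehicle than in sham duodena, with differences of -2.08 to -1.46, and all were higher with WUSTL0717 than with vehicle, by 1.98 to 2.25. Against sham, their differences with WUSTL0717 were -0.03 to 0.55. Their part in the duodenal values of *Cldn4* and *Cldn2* was not tested.

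For WUSTL0717 against SBR vehicle, the members' differences in the duodenum lay between -0.47 and 0.68, and no member had an unadjusted p under 0.05, against 5.31% of all genes, of which 0.258% were called. Against sham, *Cldn4* was the 1 member of 8 with an unadjusted p under 0.05, against 16.9% of all genes. It was at 3.14, 3.02 and 2.97 in sham duodena, at 4.48, 3.83, 4.40 and 2.84 after SBR with vehicle and at 4.19, 3.97, 4.74 and 5.37 with WUSTL0717. All 4 treated libraries exceeded the 3 sham libraries, while the SBR-vehicle libraries overlapped both. The difference from sham was 1.52 (SE 0.47, p = 0.0073, adjusted p = 0.188, limma, exact permutation p = 0.0286), where 0.802% of all genes were called and 18.4% did not overlap, 5.58% with WUSTL0717 higher. It was called when each library was centered on its median (1.89, adjusted p = 0.0358) and with library weights (1.60, adjusted p = 0.0358).

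The SBR difference in *Cldn2* was then compared between regions. Duodenum minus ileum, the SBR effects differed by -4.27 (SE 0.87, 95% interval -6.09 to -2.46, adjusted p = 0.0673, limma). An exact permutation of the labels within each region gave p = 0.00735. That permutation assumes no SBR effect in either region. The ileal effect alone can make its p small, so it does not test the difference between regions. The adjusted p missed the threshold, so that 0 of 8 members was called against 0.0754% of all genes, while 1 of 8 had an unadjusted p under 0.05, against 13.8% of all genes. Over 14 omissions of 1 library the difference was -4.71 to -3.62, with adjusted p of up to 0.183, and it was called in 1 of them, without duodenal SBR-vehicle library 1 (adjusted p = 0.0217). It also passed under median centering, quantile normalization and library weights. For the other 7 members the SBR effects differed by -1.07 to 0.44. The WUSTL0717 effect was not called different between the regions in any member (0 of 8, against 0.0251% of all genes), and 0 of 8 had an unadjusted p under 0.05, against 3.33% of all genes. For *Cldn2* the WUSTL0717 effects differed by 1.28 (95% interval -0.40 to 2.96).

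Levels in duodenum and ileum share a batch and were compared within each condition. In sham mice the channel gene *Cldn2* was higher in the duodenum by 2.08 (SE 0.66, adjusted p = 0.0384), while *Cldn3* (-1.64, SE 0.52, adjusted p = 0.0371), *Cldn7* (-1.69, SE 0.37, adjusted p = 0.00374) and *Tjp1* (-1.72, SE 0.43, adjusted p = 0.00887) were lower there. In these 4 genes the 3 duodenal and 3 ileal libraries did not overlap, nor in *Ocln* (-1.53, SE 0.53, adjusted p = 0.0556); the exact permutation p was 0.1 for each, the smallest that 3 against 3 allow. *Cldn1* differed by 1.23 (SE 0.55, p = 0.0373, adjusted p = 0.134, limma, exact permutation p = 0.2). Thus 4 of 8 members were called, against 14.6% of all genes, and 5 of 8 did not overlap, against 37.9%. The *Cldn2* and *Cldn3* calls were each lost in 5 of 6 omissions of 1 library, with adjusted p of up to 0.142 and 0.169, and were kept without duodenal sham library 2 and 3 respectively.

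After SBR with vehicle the order of *Cldn2* was the opposite. Its duodenal values, 3.01 to 6.27, lay below all ileal values, 6.77 to 7.67, with a difference of -2.19 (SE 0.57, adjusted p = 0.00319). *Cldn3* (-2.08, SE 0.45), *Cldn7* (-1.61, SE 0.32), *Ocln* (-1.53, SE 0.46) and *Tjp1* (-2.09, SE 0.37) were also called lower in the duodenum, with adjusted p of 0.000136 to 0.00804, which made 5 of 8 members called, against 56.9% of all genes, 50.2% lower. The *Ocln* libraries overlapped, and the other 4 genes were among the 43.4% of all genes that did not overlap. *Cldn15* was higher in all 4 duodenal libraries than in any ileal library (0.45, SE 0.25, adjusted p = 0.124, exact permutation p = 0.0286). With WUSTL0717, *Cldn3* (-2.55, SE 0.45), *Cldn7* (-2.12, SE 0.32) and *Tjp1* (-2.20, SE 0.37) were called, with adjusted p of 3.02e-05 to 0.000131, and *Ocln* missed the threshold (-1.06, SE 0.46, adjusted p = 0.0546). So 3 of 8 were called with WUSTL0717, against 55.9% of all genes, 48.7% lower, and these 3 and *Ocln* did not overlap, against 47.8% of all genes. *Cldn2* differed by -0.91 there (95% interval -2.10 to 0.28).

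These regional counts have to be read against a wide background. The all-gene medians, duodenum minus ileum, were -0.519, -0.976 and -0.945 in sham, SBR-vehicle and SBR-WUSTL0717 mice. Pancreas markers were called higher in the duodenum in 9 of 9 in each condition, with medians of 6.32, 4.65 and 6.65, and epithelial markers were called lower in 4, 6 and 6 of 7, against 10.8%, 50.2% and 48.7% of all genes. When each library was centered on its epithelial markers, *Cldn2* stayed called in sham mice (3.31) and was not called in SBR mice given vehicle (-0.42), and *Cldn3*, *Cldn7*, *Ocln* and *Tjp1* were called in none of the 3 conditions, with *Cldn7* changing sign after SBR with vehicle and *Ocln* after SBR with vehicle or WUSTL0717. In SBR-WUSTL0717 mice the uncalled differences of *Cldn2* and *Cldn4* also changed sign under it, from -0.91 to 0.87 and from -0.93 to 0.85. Under the same epithelial centering *Cldn1* and *Cldn15* were called higher in the duodenum in each condition, by 2.46 and 1.24 in sham, 1.94 and 2.23 in SBR-vehicle and 2.27 and 1.94 in SBR-WUSTL0717 mice, and *Cldn4* in SBR-vehicle mice, by 1.81. With each library centered on its median, *Cldn2* in SBR-vehicle mice was at -1.26 (adjusted p = 0.0757). The part of pancreatic tissue in these differences was not tested.

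The remaining members were not called between conditions in either intestinal region. *Ocln* averaged 5.28 ± 0.27, 5.19 ± 0.47 and 5.00 ± 0.41 (SD, n = 3, 4 and 4) in sham, SBR-vehicle and SBR-WUSTL0717 ilea, and 3.75 ± 0.33, 3.67 ± 1.33 and 3.94 ± 0.26 in the duodena. *Tjp1* averaged 5.67 ± 0.21, 6.05 ± 0.30 and 6.07 ± 0.51 in the ilea and 3.95 ± 0.41, 3.95 ± 0.85 and 3.88 ± 0.24 in the duodena. For both genes the duodenal SBR-vehicle libraries 1 and 3 were high and 2 and 4 low, with *Ocln* at 4.18, 2.59, 5.32 and 2.58. The library medians over all genes split the same way, at 3.08, 2.17, 2.61 and 2.13 log2 TPM.

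*Cldn7* averaged 6.23 ± 0.37, 6.59 ± 0.38 and 6.63 ± 0.14 in the ilea and 4.54 ± 0.46, 4.98 ± 0.46 and 4.51 ± 0.41 in the duodena. *Cldn15* averaged 4.53 ± 0.16, 4.74 ± 0.40 and 4.58 ± 0.20 in the duodena. *Cldn1* ranged from 1.30 to 3.70 across the intestine, averaging 1.66 ± 0.48, 1.92 ± 0.52 and 1.77 ± 0.54 in the ilea and 2.89 ± 0.88, 2.08 ± 0.93 and 2.25 ± 0.86 in the duodena. *Cldn3* averaged 7.03 ± 0.76, 6.82 ± 0.82 and 7.11 ± 0.67 in the duodena, each below all 3 ileal means. Ranked by group mean over the 6 intestinal groups, *Cldn3*, *Cldn7*, *Ocln* and *Tjp1* had all 3 ileal groups above all 3 duodenal groups, and neighbors in the ranking overlapped except at the step from ileum to duodenum. For *Cldn1*, *Cldn2*, *Cldn4* and *Cldn15* every neighboring pair of groups in the ranking overlapped.

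Other junction genes in the intestine gave no calls between conditions. Of 46 further tight junction genes listed, 32 were in the table. In the ileum 0 of 32 was called for SBR vehicle against sham (limma), 3 of 32 had an unadjusted p under 0.05, all higher, against 8.46% of all genes, and the median was 0.181, against 0.0713 over all genes. Those with the smallest p were the tricellular junction gene *Ildr1* (1.16, adjusted p = 0.142), the adhesion receptor *Cxadr* (0.97, adjusted p = 0.248) and *Mpp5*, a polarity scaffold (0.69, adjusted p = 0.482). Of 16 adherens junction and desmosome genes, 0 was called and 1 had an unadjusted p under 0.05, with *Dsg2* at 0.72, E-cadherin (*Cdh1*) at 0.63 and *Vcl* at 0.50. Of 17 genes for transcription factors known to act on epithelial genes, 0 was called and 2 had an unadjusted p under 0.05, with *Snai1* at 0.68 beside *Gata4*.

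For WUSTL0717 against SBR vehicle in the ileum, 0 of the genes in these 3 lists was called. The 1 gene with an unadjusted p under 0.05 was *Nr1h3*, the gene of LXR alpha (1.13, SE 0.36, adjusted p = 0.548). Against sham the 3 lists also gave 0 calls with WUSTL0717 in the ileum, with 9 genes at an unadjusted p under 0.05 (4 of 32, 3 of 16 and 2 of 17), against 14.1% of all genes. In the duodenum the 3 lists gave 0 calls in each of the 3 comparisons (limma), with unadjusted p under 0.05 for 8 genes in SBR vehicle against sham, for 0 genes in WUSTL0717 against SBR vehicle and for 4 in WUSTL0717 against sham. The shares of all genes were 16.1%, 5.31% and 16.9%. The extremes for SBR vehicle against sham were *Pard6b* at 1.68 (adjusted p = 0.271) and *Cgnl1* at -1.96 (adjusted p = 0.275).

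The comparison in the liver asked how the same genes stood after SBR and with the drug. SBR vehicle was above sham in all 8 members, and 5 of 8 were called, all higher. This background was broad, since 41.9% of all genes were called, 37.4% higher, and the median over all genes was 0.245 against 0.425 over the members. The largest differences were in *Cldn4* and *Cldn7*. *Cldn4* was at 2.91, 2.81, 2.88, 3.05 and 2.75 log2 TPM in sham livers and between 5.09 and 6.15, with a median of 5.28, in the 8 SBR-vehicle livers. No value of 1 group reached the other, and the difference was 2.49 (SE 0.24, adjusted p = 3.29e-07, exact permutation p = 0.000777, the smallest possible for 8 against 5). *Cldn7* was at 4.53, 4.13, 4.62, 4.81 and 4.75 in sham livers and between 6.08 and 7.00, with a median of 6.72, after SBR. The groups were again apart, by 2.11 (SE 0.20, adjusted p = 1.95e-07, exact permutation p = 0.000777). Groups did not overlap in 17.2% of all genes, 15.6% with SBR higher.

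Smaller differences were called in 3 more members. *Cldn2* was at 5.86, 5.47, 6.09, 6.21 and 5.88 in sham livers and between 5.81 and 6.95, with a median of 6.59, after SBR (difference 0.64, SE 0.15, adjusted p = 0.00235). *Cldn3* was at 8.55, 8.32, 8.62, 8.57 and 8.41 in sham livers and between 8.52 and 9.24, with a median of 8.99, after SBR (0.45, SE 0.10, adjusted p = 0.00164). *Tjp1* was at 5.38, 5.06, 5.21, 5.42 and 5.38 in sham livers and between 5.10 and 6.01, with a median of 5.69, after SBR (0.37, SE 0.13, adjusted p = 0.0223). For *Cldn2* and *Cldn3*, 7 of 8 SBR-vehicle livers lay above every sham liver, and for *Tjp1* 6 of 8 did. When libraries were centered on their medians, *Cldn4* (2.18), *Cldn7* (1.80) and *Cldn2* (0.33, adjusted p = 0.00747) stayed called, while *Cldn3* (0.14, adjusted p = 0.0574) and *Tjp1* (0.07, adjusted p = 0.310) did not. *Tjp1* was also lost without sham library 2 (adjusted p = 0.0751). Without SBR-vehicle library 2 or 7, the libraries described above, all 5 stayed called, *Cldn4* at 2.53 or 2.50 and *Cldn7* at 2.19 or 2.12.

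**Figure D3:**
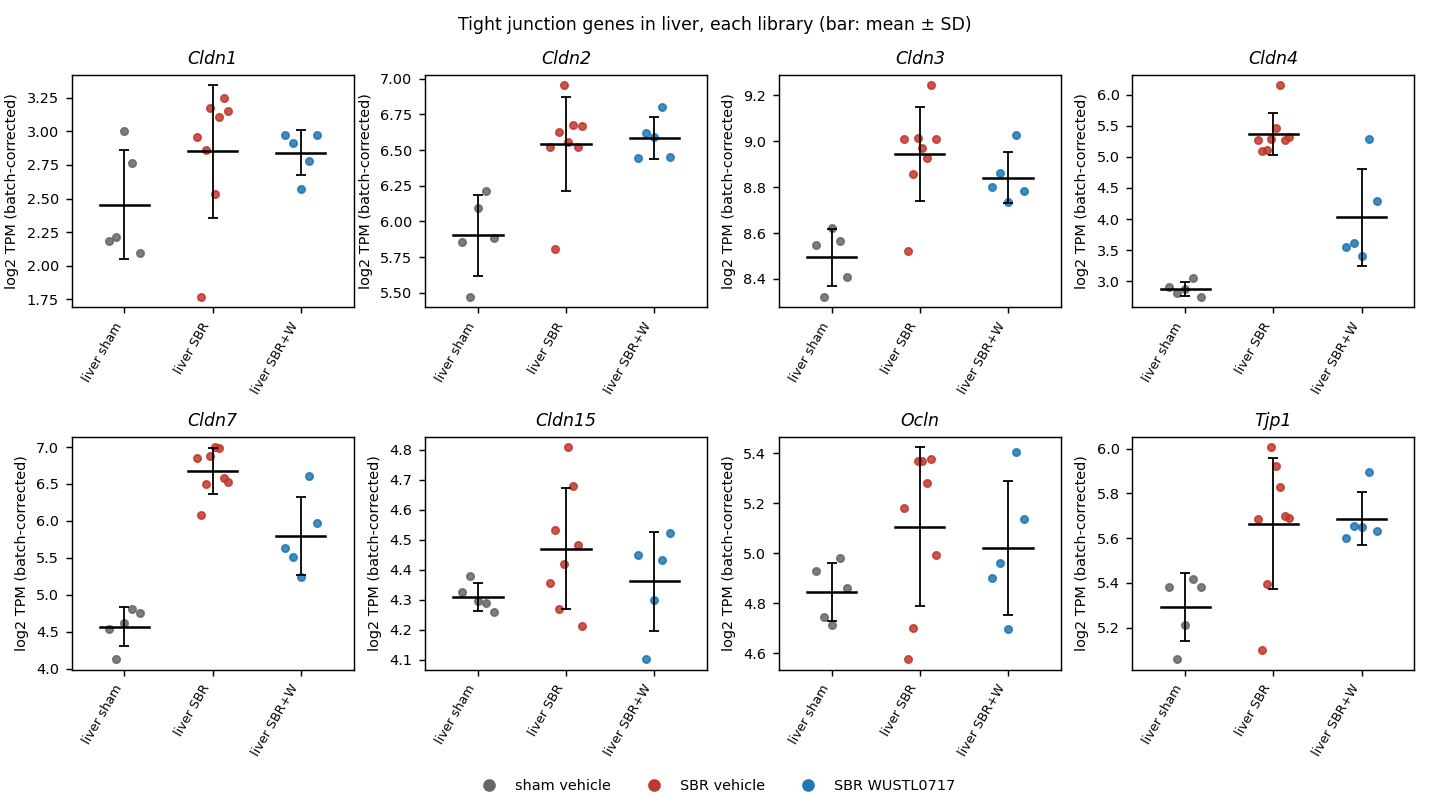
Batch-corrected log2 TPM of each tight junction gene (y axis) in every liver library, by condition (x axis, SBR+W is SBR-WUSTL0717). Points are libraries, bars are mean ± SD. *Cldn4* is at 2.75 to 3.05 in sham, 5.09 to 6.15 in SBR-vehicle and 3.41 to 5.29 in SBR-WUSTL0717 livers.

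*Cldn4* and *Cldn7* were also the 2 of 8 members called between the SBR groups, both lower with WUSTL0717, where 4.1% of all genes were called, 2.66% lower. *Cldn4* was at 3.55, 3.61, 3.41, 5.29 and 4.29 in treated livers. The treated libraries 1, 2, 3 and 5 were below all 8 SBR-vehicle livers and library 4 was within their range, and all 5 were above the sham livers. The difference from SBR vehicle was -1.34 (SE 0.24, adjusted p = 0.0082, exact permutation p = 0.00389), and the difference from sham was 1.15 (SE 0.27, adjusted p = 0.00562, exact permutation p = 0.00794).

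*Cldn7* was at 5.63, 5.51, 5.24, 6.61 and 5.97 in treated livers, with the same 4 libraries below all SBR-vehicle livers and library 4 among them. The difference from SBR vehicle was -0.88 (SE 0.20, adjusted p = 0.0184, exact permutation p = 0.00466), and from sham 1.22 (SE 0.22, adjusted p = 0.000804, exact permutation p = 0.00794). Leaving out treated library 1, 2 or 3 raised the adjusted p for *Cldn7* against SBR vehicle to 0.0624, 0.0695 or 0.0812. *Cldn4* stayed called in each of the 13 omissions, at -1.65 to -1.19, with adjusted p of at most 0.0410; with the unmoderated test its adjusted p was 0.106 and that of *Cldn7* 0.123.

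The other 6 members did not differ detectably between the SBR groups in the liver, with differences of -0.11 to 0.04. The intervals reached from -0.46 to 0.44 for *Cldn1*, from -0.27 to 0.36 for *Cldn2* and from -0.32 to 0.11 for *Cldn3*. Against sham, *Cldn2* (0.68, SE 0.17, adjusted p = 0.00714), *Cldn3* (0.35, SE 0.11, adjusted p = 0.0293) and *Tjp1* (0.40, SE 0.14, adjusted p = 0.0406) were called in treated livers beside *Cldn4* and *Cldn7*, so that 5 of 8 were called, all higher, against 28.8% of all genes, 27.9% higher. All 5 did not overlap sham, against 28.1% of all genes, 27.4% higher. *Cldn2* was at 6.45, 6.62, 6.59, 6.80 and 6.45 in treated livers. The *Cldn3* and *Tjp1* calls were lost under median centering (0.05 and 0.09), and *Tjp1* in 9 of 10 omissions of 1 library. *Cldn3* was lost without treated library 2 or 4 or sham library 2 or 5, with adjusted p of up to 0.0912. Group means of *Ocln* in sham, SBR-vehicle and SBR-WUSTL0717 livers were 4.85 ± 0.12, 5.11 ± 0.32 and 5.02 ± 0.27, those of *Cldn15* 4.31 ± 0.05, 4.47 ± 0.20 and 4.36 ± 0.17, and those of *Cldn1* 2.45 ± 0.41, 2.85 ± 0.49 and 2.84 ± 0.17 (SD, n = 5, 8 and 5), with no call.

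**Figure D4:**
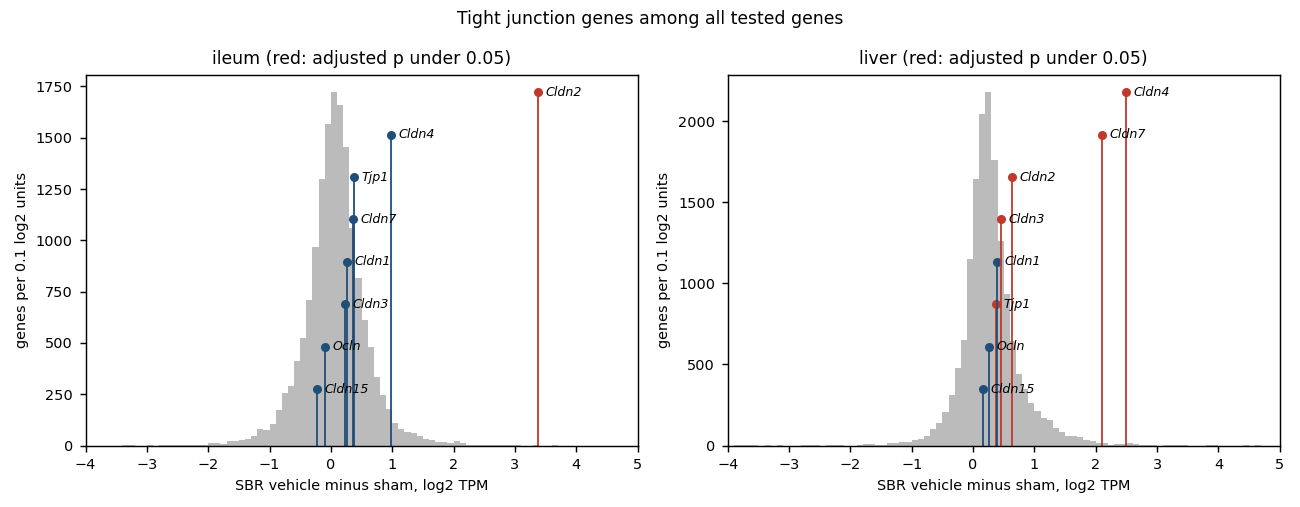
Number of genes (y axis) by the difference between SBR vehicle and sham in log2 TPM (x axis, bins of 0.1), for ileum and liver. Lines mark the 8 tight junction genes at arbitrary heights, red where the adjusted p was under 0.05; *Cldn2* stands at 3.38 in the ileum, and *Cldn4* and *Cldn7* at 2.49 and 2.11 in the liver, where the center of all genes lies at 0.245.

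Markers of other cell types were examined beside *Cldn4* and *Cldn7* in the liver. Of the cholangiocyte markers, 8 of 8 were called higher in SBR-vehicle livers than in sham, against 37.4% of all genes, led by *Spp1* (3.31), *Epcam* (2.68), *Krt19* (2.14), *Sox9* (1.82) and *Krt7* (1.65), and 5 of 8 were called lower with WUSTL0717 than with vehicle, against 2.66% of all genes, namely *Epcam* (-1.10), *Spp1* (-1.06), *Sox9* (-0.95), *Krt7* (-0.85) and *Cftr* (-0.46). Their summed level, from the corrected values, was 89.0 to 194 in sham, 403 to 809 in SBR-vehicle and 244 to 530 in treated livers. Each gene may have been shifted by a different amount in the batch correction, so these sums are not measured TPM. The treated liver with the highest sum was library 4, the one with the highest *Cldn4* and *Cldn7*. The batch correction raised low liver values, so whether a marker was at 0 there could not be read: *Fabp6*, an ileal gene, stood at a lowest value of 3.26 in the liver. Hepatocyte markers were called lower in 3 of 10 after SBR, against 4.47% of all genes, and higher in 1 of 10. Genes of crypt and dividing cells were called higher after SBR in 6 of 8, against 37.4% of all genes, among them *Mki67* (2.03), *Smoc2* (1.96), *Top2a* (1.58) and *Axin2* (1.18). With WUSTL0717, *Smoc2* was called lower than with vehicle (-0.59), where 2.66% of all genes were called lower. Smooth muscle and stromal genes were called higher in 6 of 10 after SBR and lower in 3 of 10 with WUSTL0717, against the same 37.4% and 2.66% of all genes. Immune genes were called higher in 3 of 7 after SBR and endothelial genes in 1 of 7, near and below the share of all genes, and neither list had a call with WUSTL0717 against vehicle. The part of any of these cells in the claudin differences was not tested.

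**Figure D5:**
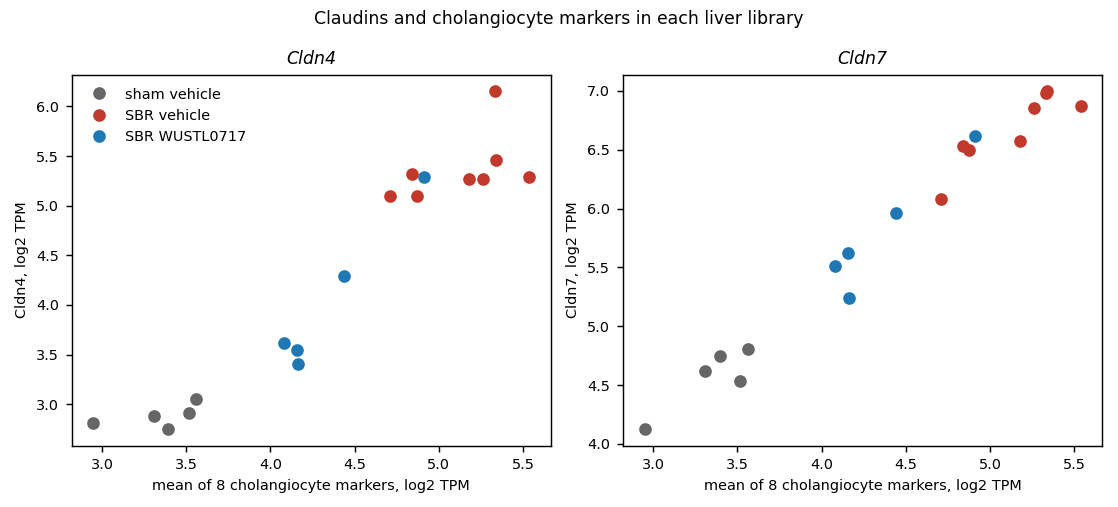
*Cldn4* and *Cldn7* (y axes) against the mean of the 8 cholangiocyte markers (x axis), both in log2 TPM, for each of the 18 liver libraries, colored by condition. Sham livers lie lowest on both axes, SBR-vehicle livers highest, and 4 of the 5 treated livers between; treated library 4 lies among the SBR-vehicle livers.

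The promoters of *Cldn4* and *Cldn7* are shown because the genes moved together in the liver. For *Cldn4* (chr5:134946935-134947184, minus strand) capitals mark both AP-1 motifs (TGANTCA), a GC box (GGGCGG, here on the other strand) and a Snail E-box (CAGGTG, other strand). *Cldn7* (chr11:69964779-69967885, plus strand) has 2 RefSeq starts; the window of the first held none of the 9 motifs searched, and that of the second (chr11:69965171-69965420, plus strand) is printed, with a GC box and 2 Snail E-boxes in capitals.
Cldn4: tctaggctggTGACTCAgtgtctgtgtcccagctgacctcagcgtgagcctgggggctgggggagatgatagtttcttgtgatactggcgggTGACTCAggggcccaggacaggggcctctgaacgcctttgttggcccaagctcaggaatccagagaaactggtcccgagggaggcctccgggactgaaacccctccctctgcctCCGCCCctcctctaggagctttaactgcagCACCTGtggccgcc
Cldn7: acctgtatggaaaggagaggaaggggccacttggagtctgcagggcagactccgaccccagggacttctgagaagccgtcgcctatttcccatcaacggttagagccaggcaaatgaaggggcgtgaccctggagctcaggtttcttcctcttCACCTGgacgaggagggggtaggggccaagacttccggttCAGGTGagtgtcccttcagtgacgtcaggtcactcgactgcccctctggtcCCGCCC
AP-1 letters occurred in 6.75% of the 32851 windows, GC boxes in 32.7% and Snail E-boxes in 17.2%. Among the 8 members an AP-1 motif was found in *Cldn4* and *Cldn15*, and a Snail E-box in *Cldn4*, *Cldn7* and the second start of *Ocln*. The LXR motif DR4, a pair of AGGTCA 4 bases apart (0.0152% of windows), the GATA motif AGATAA (9.99%) and the Grainyhead motif AACNGGTT (1.79%) were in no member's window. Sequences are from RefSeq, build GRCm38.p6, and all 8 members were matched.

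Further junction genes were examined in the liver. Of the 32 further tight junction genes, 21 were called higher and 0 lower, with a median of 0.459, against 37.4% of all genes called higher and a median of 0.245. They included *Arhgef2*, a guanine nucleotide exchange factor held at the junction (1.70, SE 0.17), *Ildr1* (1.41, SE 0.16), *Marveld3* (0.92, SE 0.15), *Marveld2*, which encodes tricellulin (0.75, SE 0.13), the scaffold *Patj* (0.87, SE 0.13), and *Cxadr* (0.84, SE 0.16). Smaller differences of 0.33 to 0.65 were called for *Lsr*, *Magi1*, *Cldn23*, *Pard6b*, *Ybx3*, *F11r*, *Afdn*, *Crb3*, *Prkci*, *Magi3*, *Cgn*, *Tjp3*, *Igsf5* and *Esam*. With WUSTL0717, *Ildr1* was the 1 of 32 called against SBR vehicle (-0.81, SE 0.16, adjusted p = 0.0126), near the 4.1% of all genes called there, and 16 of 32 were called higher than sham, against 27.9% of all genes.

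Of 16 adherens junction and desmosome genes in the liver, 13 were called higher after SBR, against 37.4% of all genes, among them *Epcam* (2.68, also a cholangiocyte marker here), *Pkp3* (1.13), *Cdh1* (0.97) and *Dsp* (0.76), which encodes desmoplakin. With WUSTL0717, *Epcam* (-1.10), *Cdh1* (-0.61) and *Pkp3* (-0.55) were called lower than with vehicle, or 3 of 16 against 2.66% of all genes. Of 17 regulators, 9 were called higher after SBR, against the same 37.4% of all genes, among them *Snai1* (1.53), a repressor of epithelial genes, *Elf3* (1.38), *Grhl2* (1.02), a known activator of claudin genes, *Gata6* (0.92), *Klf5* (0.92), *Klf4* (0.77), *Nr1h2* (0.45), the gene of LXR beta, and *Gata4* (0.43). *Grhl2* (-0.61, adjusted p = 0.0135) and *Snai1* (-0.57, adjusted p = 0.0346) were called lower with WUSTL0717 than with vehicle, or 2 of 17 against the same 2.66%.

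The intestinal genes whose pattern was most like that of a member were found by the mean of the Pearson correlations within the 11 duodenal and within the 11 ileal libraries, over 14913 genes. All pairs share libraries, so the values describe these libraries alone. For *Cldn2* they were *Ffar4*, a receptor for long-chain fatty acids (mean r 0.872), and *Fam174b* (0.867), and for *Cldn4* *Gprc5a* (0.895) and *Zfand2a* (0.857). *Cldn3* went with *Dda1* (0.922) and *Csnk1g2* (0.916), *Cldn7* with *Ell* (0.922) and *Tnfrsf1a* (0.904), *Tjp1* with *Arhgap21* (0.922) and *Lrrfip2* (0.917), and *Ocln* with *Naa35* (0.888) and *Vps41* (0.888). For *Cldn1* they were *Fkbp9* (0.877) and *Commd9* (0.870), and for *Cldn15* *Lpar5* (0.862) and *Xpnpep1* (0.851).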

How the data were processed

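RNA of duodenum, ileum and liver was ribosome-depleted and primed with random hexamers. The authors aligned reads to GRCm38 (Ensembl 101) with STAR 2.7.9a, obtained gene counts with featureCounts, normalized these by edgeR size factors and gene length to TPM, and deposited log2 TPM values in 1 table after ComBat had been run with intestine and liver as batches. The pseudocount is not given in the sources used here. ComBat can shift and rescale each gene within a batch. The depth is unknown, so no counting interval was given.

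Genes with a mean of at least 1 in the libraries fitted were tested with limma 3.58.1 (R 4.3.3; variance trend, the 3 groups of a tissue together; duodenum and ileum together for regions) and Benjamini-Hochberg adjustment. For each member an exact two-sided permutation test of the group labels was added. The fits were tested on simulated data. Replicates were separate libraries of 1 group, so p-values measure the spread between these libraries. It is not stated whether duodenum and ileum came from the same mice. The rule named members with an unadjusted p under 0.05 or without overlap between groups, and differences of other members, such as those of *Cldn2* with their intervals, were added after their values were seen. In other lists, called genes or the 3 with the smallest p are named. *Fabp6*, *Slc10a2*, *Adh6a*, *Pdx1*, *Cybrd1* and the cholangiocyte genes come from the marker lists. The members and lists were chosen with earlier results of these data known. The alternatives were other filters, pseudocounts, scalings, weights and fits, and leaving out each library. Gene positions are from GENCODE M21 (GRCm38). Some genes of the lists and 1 of the motifs searched are not reported here.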

Additional observations from a re-analysis of the deposited data

Results flagged for a closer look

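Liver *Cldn2* in SBR-vehicle library 2 was the lowest of its group at 5.81, separated from the other 7 by 0.622 of the range of the group. The same library had the lowest hepatocyte marker mean of its group. It also had the lowest median over all genes, 3.13 log2 TPM against 3.32 to 3.77 in the other 7. Liver *Cldn4* in SBR-vehicle library 6 was the highest of its group at 6.15 (gap 0.649 of the range), and liver *Tjp1* in SBR-WUSTL0717 library 4 was the highest of its group at 5.89 (gap 0.824 of the range). These were 3 of 56 groups of values examined, or 5.36%, where chance alone gives about 1 in 20.

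The SBR effect on *Cldn2* differed between duodenum and ileum by -4.27, with an adjusted p of 0.0673 (limma), among 16 such differences examined. The exact permutation p was 0.00735, but that permutation assumes no SBR effect in either region and does not test the difference alone.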

How the results depend on the processing

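Of 429 recomputed differences of named members (other filters, pseudocounts, scalings, weights and fits), 364 kept direction and side of the threshold, 37 lost and 25 gained a call, and 3 changed sign. Those 3 came from centering on epithelial markers: *Cldn7* (0.16) and *Ocln* (0.25) after SBR with vehicle and *Ocln* (0.72) with WUSTL0717, duodenum minus ileum. The *Cldn2* and *Cldn4* differences between regions in SBR-WUSTL0717 mice, not counted among the named ones, changed sign there too (0.87 and 0.85). The cause was not tested. The number of the 8 members called moved as follows. Under median centering it was 1 for duodenal WUSTL0717 against sham, 3 for both liver comparisons with sham, 5 for the region in SBR-WUSTL0717 mice and 1 for the difference of SBR effects. Quantile normalization gave 3 for liver WUSTL0717 against sham, 5 for the region in SBR-WUSTL0717 mice and 1 for the difference of SBR effects. Library weights gave 1 for duodenal and 2 for ileal WUSTL0717 against sham, and 1 for the difference of SBR effects. Epithelial centering gave 3 for the region in SBR-vehicle mice, *Cldn1*, *Cldn4* and *Cldn15*, all higher in the duodenum and none of them among the 5 called without it. It gave 3 instead of 4 in sham mice (*Cldn1*, *Cldn2* and *Cldn15*) and 2 instead of 3 in SBR-WUSTL0717 mice (*Cldn1* and *Cldn15*). A filter at 3 and a pseudocount of 5 each gave 2 for ileal WUSTL0717 against sham. The compared groups alone gave 0 for ileal WUSTL0717 against sham and 1 for liver WUSTL0717 against SBR vehicle. The unmoderated test gave 0 for ileal SBR vehicle and WUSTL0717 against sham, 0 for liver WUSTL0717 against SBR vehicle, 2 for the region in sham and 3 in SBR-vehicle mice.

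Leaving out 1 library at a time gave 0 to 1 for ileal SBR vehicle and 0 to 2 for ileal WUSTL0717 against sham, 4 to 7 for liver SBR vehicle and 3 to 5 for liver WUSTL0717 against sham, 1 to 2 for liver WUSTL0717 against SBR vehicle, 2 to 3 for the region in sham mice and 0 to 1 for the difference of SBR effects. Liver SBR vehicle against sham reached 7 without SBR-vehicle library 2. With the replicate number as a block, the count was 0 for ileal SBR vehicle and for ileal WUSTL0717 against sham (*Cldn2*, adjusted p = 0.0876 and 0.0851). The numbers were not taken as pairing the libraries, since in 0 of 12 comparisons were the deviations of every same-numbered pair correlated above 0.1 (r from -0.32 to 0.45), and in 0 did every library correlate best with its own number. The sham duodenum against ileum came nearest, with r from 0.07 to 0.45, 2 of 3 pairs above 0.1 and 5 of 6 libraries closest to their own number, so pairing there was not settled. Exact tests of medians could not fall below 0.0571 with 4 against 4 or 4 against 3 libraries, so they bear on the liver alone, where 1 of 12 tests lost p under 0.05 (*Tjp1*, SBR vehicle against sham, p = 0.0979). Depth is unknown, so differences at low values, such as those of *Cldn1*, are less certain.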
